A study of Mus musculus with 15 samples.

Results

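Interferon-stimulated genes are switched on when a cell receives interferon, the signal that cells release on meeting a virus. The 36 genes followed here were picked by symbol, and each symbol was found among the 24498 genes of the deposited count table. Of these 36, 34 passed a filter on low counts and were tested among 15075 genes in all. Mx1 and Ifi44 had too few reads and are given as read counts. RNA had been sequenced from plated primary mouse hippocampal neurons, obtained from a university neuron core and kept in neurobasal medium with GlutaMAX and B27. The cultures had differentiated for 7 days before a 24 h treatment that crossed 5 mM acetate or plain medium (vehicle) with 20 µM of an ACSS2 inhibitor or diluted DMSO, which served as its control. ACSS2 makes acetyl-CoA from acetate, and the study used acetate to imitate heavy drinking. The groups were DMSO with vehicle (4 libraries), DMSO with acetate (4), inhibitor with vehicle (3) and inhibitor with acetate (4), named below as DMSO vehicle, DMSO acetate, inhibitor vehicle and inhibitor acetate. The sources used here do not give the strain, sex or age of the animals, or whether a culture pooled several of them. Nothing in the labels says that replicates came from separate cultures, so a p-value measures only the spread between these libraries.

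As background, type I interferon binds the receptor of Ifnar1 and Ifnar2, whose kinases Jak1 and Tyk2 phosphorylate STAT proteins, Stat2 among them. Stat2 and Irf9 act in a complex, ISGF3, which binds a short sequence before the target genes, the interferon-stimulated response element. In brain, neurons, astrocytes and microglia can all answer interferon, and a low level of many of these genes is present without infection.

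The response element's core was looked for in the promoters, because it is the sequence through which ISGF3 and the IRF factors act. Promoters came from RefSeq (build GRCm38.p6, the assembly also called mm10), as 250 bases before to 50 bases after each start, and 27 of the 36 genes had one. Mx1, Mx2, Usp18, Dhx58, Ifi27, Rtp4, Parp9, Parp14 and Oas2 had no entry. The motif, 2 copies of GAAA with 2 bases of any kind between them, read on both strands (TTTC and TTTC on the other), was present in 14 of these 27 genes (51.9%) and in 3.99% of 27025 genes with a promoter. Of the 23 genes with a promoter that fell with acetate without inhibitor, 13 (56.5%) had it, and of the 3 tested genes with a promoter that did not fall, 1 (Stat2) had it. A match is a description of letters, not a measured binding site. The stretches before the start are printed below 5′ to 3′ on the gene's own strand, with motif matches in capitals. They show the gene with most matches (Isg15, chr4:156200819-156201068, minus strand, first bases at -78, -72 and -66 from the start, sharing letters), a gene of the Ifit cluster (Ifit3, chr19:34583279-34583528, plus strand), and the gene with the lowest fold (Oas1a, chr5:120907526-120907775, minus strand, matches at -20 and -14). Rsad2 (chr12:26456453-26456702, minus strand) and Cmpk2 (chr12:26468965-26469203, plus strand, 239 bases) are shown as divergent neighbours that differed in their response, and Stat2 (chr10:128270248-128270497, plus strand, match at -222) as a gene with a match that did not fall.
Isg15: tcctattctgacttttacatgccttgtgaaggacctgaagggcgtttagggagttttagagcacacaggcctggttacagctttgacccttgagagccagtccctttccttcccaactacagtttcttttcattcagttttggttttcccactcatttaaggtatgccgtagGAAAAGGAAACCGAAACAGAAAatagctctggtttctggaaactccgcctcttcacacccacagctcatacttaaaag
Ifit3: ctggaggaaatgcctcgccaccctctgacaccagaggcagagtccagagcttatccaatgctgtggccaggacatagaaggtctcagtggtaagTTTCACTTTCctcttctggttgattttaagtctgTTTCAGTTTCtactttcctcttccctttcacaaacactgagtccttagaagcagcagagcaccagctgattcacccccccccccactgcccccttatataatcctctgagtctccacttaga
Oas1a: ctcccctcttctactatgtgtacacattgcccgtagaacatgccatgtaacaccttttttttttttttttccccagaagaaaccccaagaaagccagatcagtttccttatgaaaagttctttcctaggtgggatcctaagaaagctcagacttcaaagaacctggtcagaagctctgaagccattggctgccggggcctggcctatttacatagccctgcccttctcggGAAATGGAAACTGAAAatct
Rsad2: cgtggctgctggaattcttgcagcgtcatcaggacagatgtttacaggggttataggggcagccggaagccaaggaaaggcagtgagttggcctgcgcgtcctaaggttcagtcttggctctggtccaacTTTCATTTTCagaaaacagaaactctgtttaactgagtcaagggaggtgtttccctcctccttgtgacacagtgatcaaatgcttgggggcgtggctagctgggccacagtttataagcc
Cmpk2: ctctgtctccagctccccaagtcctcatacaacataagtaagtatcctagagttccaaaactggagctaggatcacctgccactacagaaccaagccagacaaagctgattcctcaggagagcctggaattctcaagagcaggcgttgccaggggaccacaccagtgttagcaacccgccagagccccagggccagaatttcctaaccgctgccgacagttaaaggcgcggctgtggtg
Stat2: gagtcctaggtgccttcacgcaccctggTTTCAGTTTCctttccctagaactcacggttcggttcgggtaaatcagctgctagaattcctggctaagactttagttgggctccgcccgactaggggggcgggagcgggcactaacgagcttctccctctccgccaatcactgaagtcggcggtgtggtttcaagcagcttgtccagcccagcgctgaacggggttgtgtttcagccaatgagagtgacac

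A library held 19688231 to 39234799 reads on genes, so that 3 reads were worth 0.0832 to 0.162 CPM (counts scaled to a common library total, with TMM factors between libraries). The labelled cell type was present: the mean of 14 neuronal markers was 7.97 to 8.95 log2 CPM in every library. Markers of other cells were present too, and those of microglia and macrophages (17 listed, 16 tested) moved with the groups. Without inhibitor their summed level was 174 to 886 CPM in vehicle libraries and 36.3 to 62.5 CPM in acetate libraries. With inhibitor the corresponding ranges were 28.2 to 750.1 and 25.8 to 79.1 CPM. No marker of that list was at 0 across a whole group. Acetate lowered 16 of the 16 tested markers in each arm, with median log2 folds of -4.50 without and -3.72 with inhibitor, while 12 of 14 neuronal markers rose in each (3 and 2 when libraries were scaled on these markers themselves). Without inhibitor, markers of astrocytes (7 of 11 tested), the oligodendrocyte lineage (7 of 9), vessels (6 of 9, with 1 higher) and meninges (7 of 8) fell as well. Markers that passed the filter on low counts only through vehicle libraries, such as Ptprc, had to be lower with acetate and were not set apart. The astrocyte list, with Gfap as its most-read marker, had a summed level of 4552 to 12500 CPM in DMSO vehicle and 3596 to 4460 CPM in DMSO acetate. The neuronal markers summed to 4905 to 8048 and 9907 to 11703 CPM in these groups. The summed level of the oligodendrocyte list did not fall: it was 284 to 879 CPM in DMSO vehicle and 706 to 991 CPM in DMSO acetate. Olig1, its most-read marker, had 18473, 2231, 1541 and 1729 reads in DMSO vehicle and 14365 to 19292 in DMSO acetate. Csf1r, the receptor for the growth factor of microglia, was at 43.7 ± 22.6 CPM (SD, n = 4) in DMSO vehicle and 1.77 ± 0.587 CPM (SD, n = 4) in DMSO acetate. Xist, the RNA of the inactive X chromosome, was at 66.1 ± 5.99 CPM (SD, n = 4) and 128 ± 9.54 CPM (SD, n = 4) in the same groups, and the Y-linked Eif2s3y at 18.3 ± 0.784 CPM (SD, n = 4) and 10.3 ± 0.592 CPM (SD, n = 4), so acetate and vehicle cultures also differed in transcripts that tell sexes apart.

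A pair of vehicle libraries stood apart from the rest of their groups in the interferon-stimulated genes and in the markers of several cell types. DMSO vehicle 1 was the lowest of its 4 libraries in 30 of the 34 tested interferon-stimulated genes (36.8% of all tested genes were lowest there), with a median of 51.0% of the mean of the other libraries. Its markers stood at a median of 18.8% of the others for microglia, 30.1% for meninges, 49.9% for vessels and 144% for neurons. Astrocyte markers were at a median of 81.4%, but summed to 4552 CPM, against 10554 to 12500 CPM in the rest of the group. Inhibitor vehicle 2 was the lowest of 3 in 31 of 34 (39% of all genes), at a median of 36.1% of the other libraries, with markers at 1.54% for microglia, 10.4% for vessels, 16.4% for meninges and 140.1% for neurons. Its astrocyte markers were at a median of 72.0%, and summed to 4298 CPM, against 11949 and 13602 CPM in the rest of the group. For 27 of the 34 genes, inhibitor vehicle 2 was not above the highest inhibitor acetate library. The exceptions were Ifit3, Irf9, Ifih1, Rtp4, Dtx3l, Eif2ak2 and Gbp3. Counts over all the interferon-stimulated genes are therefore given below with and without both libraries. Counts by role class and by pathway list are given only with them. Both are vehicle libraries that were low in most of these same genes. Leaving them out therefore had to deepen the falls with acetate, and counts without them are no separate support for those falls.

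**Figure D1:**
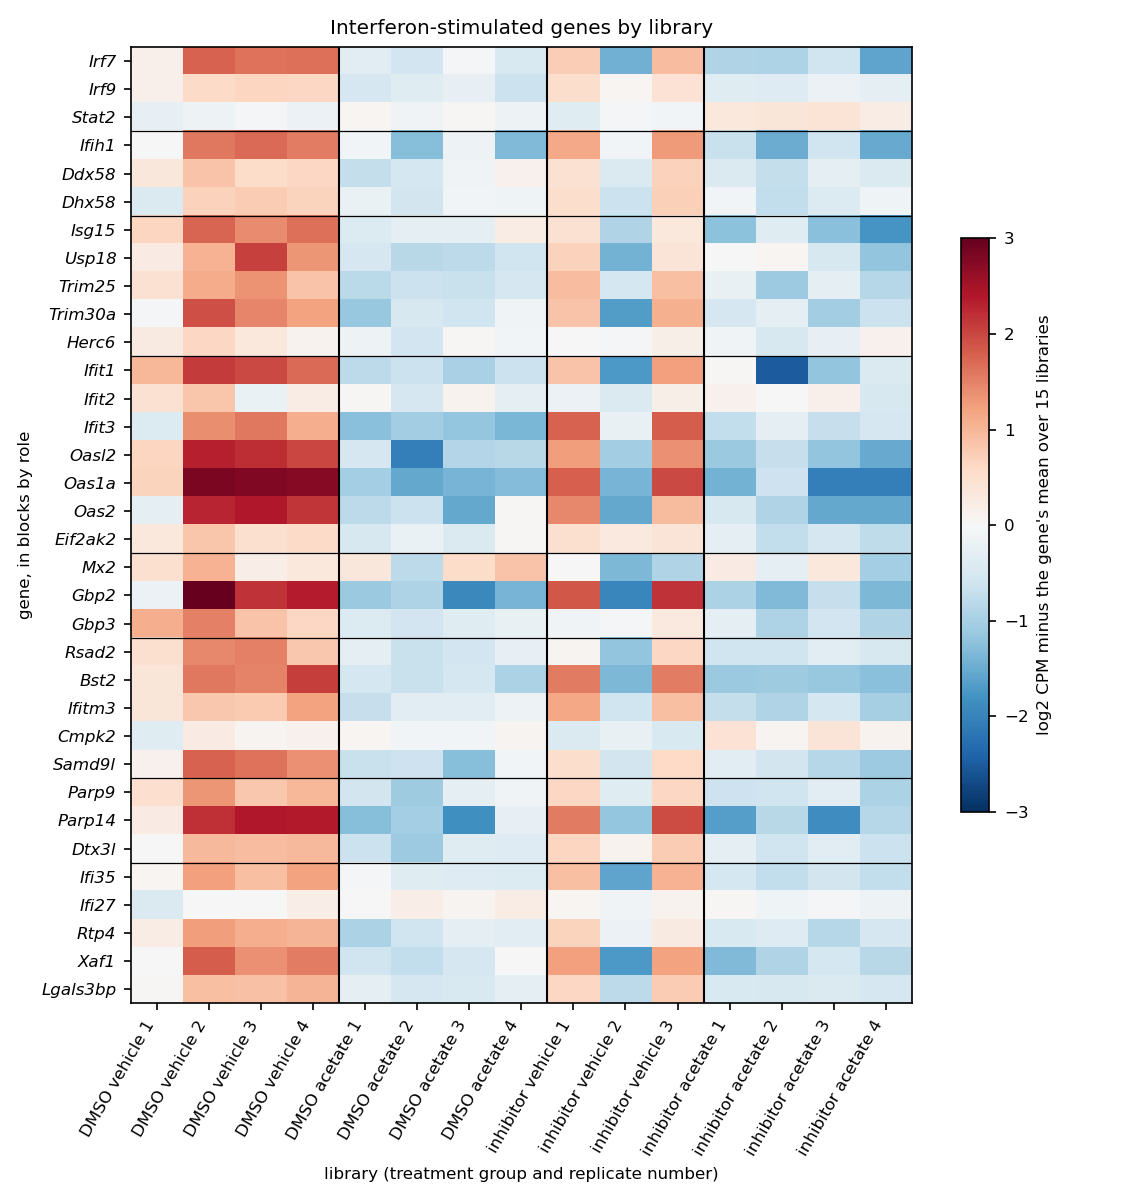
Colour shows log2 CPM minus the gene's mean over 15 libraries for the 34 tested interferon-stimulated genes (rows, in blocks by role) in each library (columns). DMSO vehicle 2, 3 and 4 and inhibitor vehicle 1 and 3 are red in most rows, while inhibitor vehicle 2 resembles the 8 acetate libraries.

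**Figure D2:**
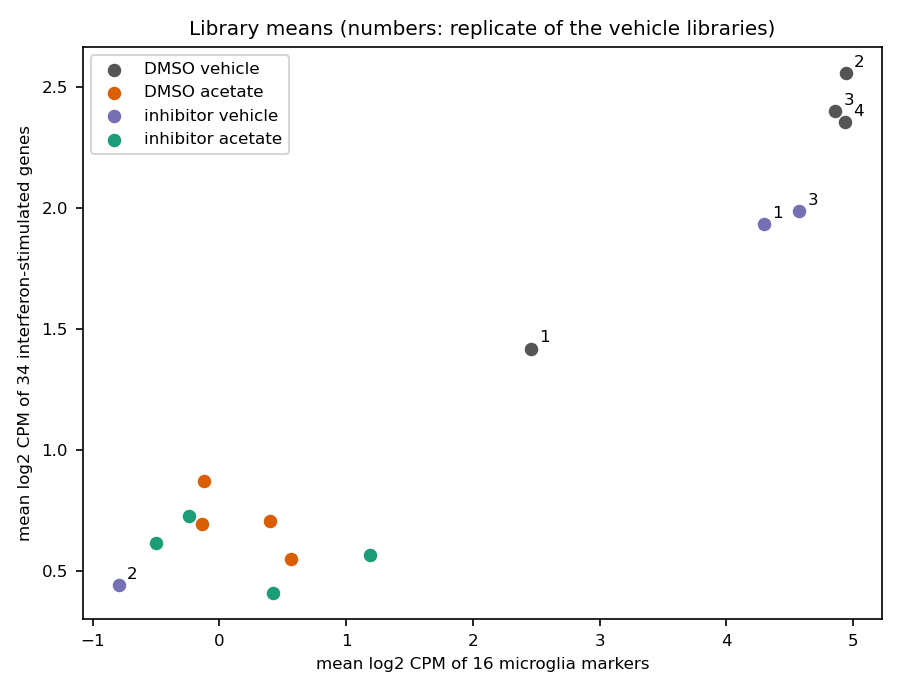
Each point is a library, with the mean log2 CPM of 16 microglia markers on the horizontal axis and that of 34 interferon-stimulated genes on the vertical axis. DMSO vehicle 1 lies between the other vehicle libraries and the acetate libraries (2.46 and 1.42), and inhibitor vehicle 2 lies with the acetate libraries (-0.79 and 0.44).

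The vehicle libraries low in one mean were low in the other, but within the acetate groups the order differed. The interferon-stimulated genes averaged 1.42, 2.56, 2.40 and 2.36 log2 CPM in DMSO vehicle 1 to 4 and 0.55 to 0.87 in DMSO acetate. In inhibitor vehicle they averaged 1.93, 0.44 and 1.99, and in inhibitor acetate 0.41 to 0.73. DMSO acetate 2 had the highest microglia mean of its group (0.56 log2 CPM) and the lowest mean of the interferon-stimulated genes (0.55). In bulk RNA, fewer cells of a type and less RNA per cell cannot be told apart, and the part of the cell-type markers and of the sex-linked transcripts in the results below was not tested beyond the fit with a microglia term.

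Levels can be compared between genes only per length, here as CPM per kilobase of exons in the GENCODE M21 annotation. In DMSO vehicle, Ifitm3, a membrane protein that blocks virus entry, had the highest level at 70.5 ± 16.6 (SD, n = 4). Bst2, which tethers budding virions, followed at 19.4 ± 8.24, and Ifi27, a small mitochondrial protein, at 19.1 ± 3.28, a difference within their spread. Lgals3bp (12.5 ± 3.33) and Stat2 (6.62 ± 0.359) came next, and the lowest was Ifi44 at 0.0352 ± 0.0365. In DMSO acetate the order changed. Ifitm3 stayed first at 30.7 ± 4.57, but Ifi27 (21.4 ± 1.67) and Stat2 (7.16 ± 0.529) now ranked 2 and 3 of the 36. Gbp2 went from rank 9 to rank 20, Oas1a from 17 to 34, and Cmpk2 from 12 to 7.

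Acetate without inhibitor went with lower levels of most interferon-stimulated genes, from the antiviral effectors to the factors that switch them on. In edgeR's quasi-likelihood test, adjusted by Benjamini-Hochberg over 15075 genes, 28 of 34 fell and 0 rose, against 27.5% of all tested genes that fell and 23.7% that rose. Their median log2 fold was -1.60, and that of all tested genes was -0.034. Adjusted p-values of the 28 ran from 7.92e-05 to 0.0271. The groups' libraries did not overlap, all lower with acetate, in 27 of the 34, as in 23.3% of all tested genes (22.1% did not overlap upward, against 0 of the 34). With both uneven libraries left out, 30 of 35 fell (31.6% of all genes in that fit). The gene added there, Mx1, passed the filter only through DMSO vehicle libraries. Because 8 of the 34 (Ifit1, Oas1a, Oas2, Usp18, Ifih1, Parp14, Trim30a and Samd9l) passed the filter on low counts only through vehicle libraries and so had to be lower with acetate, the other 26 are given apart: 20 of these fell, with a median of -1.33. With no filter on low counts, edgeR's adjusted p for Mx1 (-1.91, adjusted p = 0.0353) and Ifi44 (-2.79, adjusted p = 0.0451) also passed. At an unadjusted p under 0.05, 30 of the 34 were lower and 0 higher, a count not taken over all genes. DESeq2 called 29 lower and 0 higher (27.1% and 24.7% of all genes). Ifit2, Stat2, Mx2, Dhx58, Ifi27 and Cmpk2 were the 6 that did not pass the test.

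**Figure D3:**
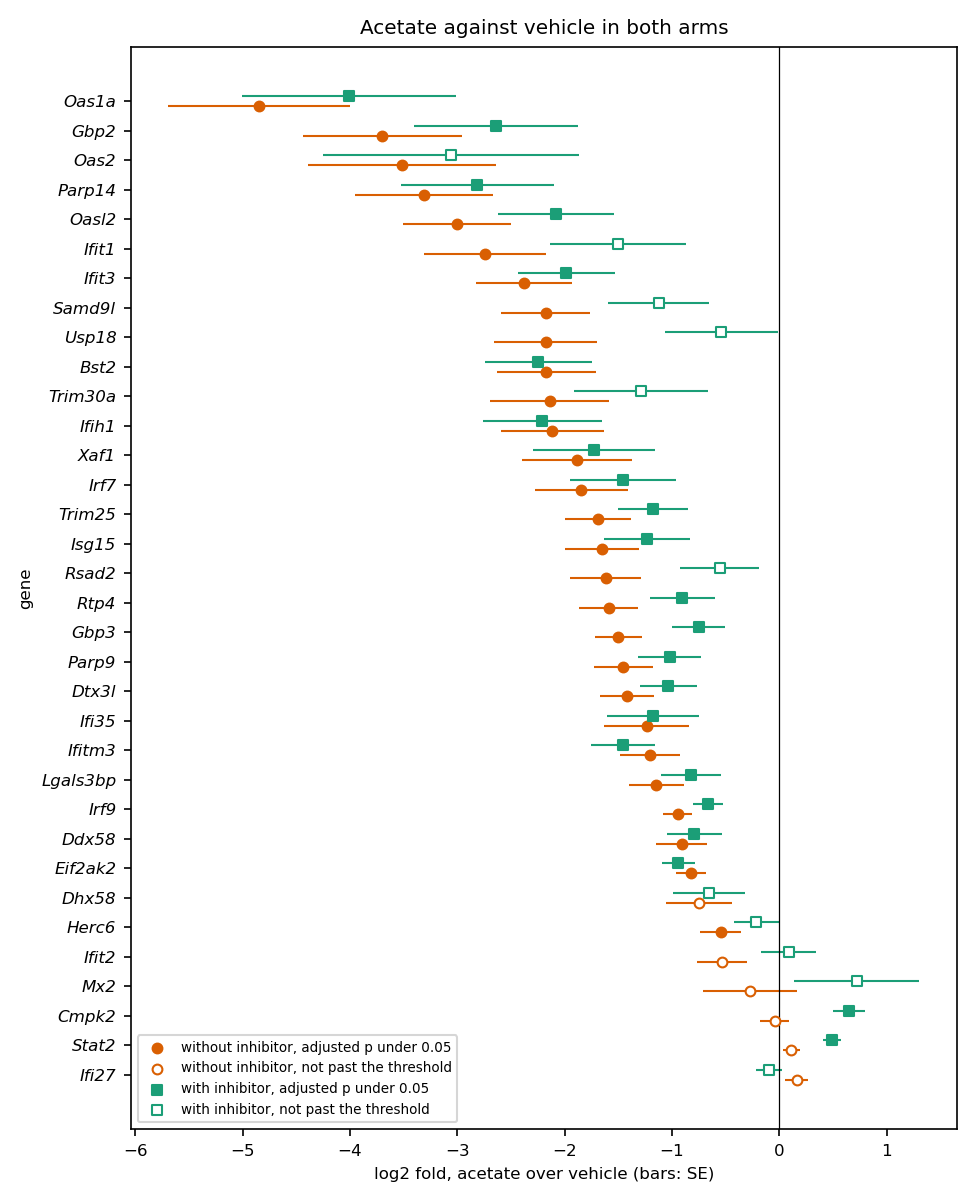
Log2 fold of acetate over vehicle for each tested gene without inhibitor (circles) and with inhibitor (squares). Bars are SE and filled symbols passed an adjusted p under 0.05. Folds run from -4.85 (Oas1a) to 0.16 (Ifi27) without inhibitor (Ifi27 was at -0.60 when scaled on neuronal markers).

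With the inhibitor present, acetate lowered 21 of the 34 (20.6% of all tested genes fell) and raised 2, Stat2 and Cmpk2 (14.5% rose; neither did when scaled on neuronal markers). The median log2 fold was -1.08, and all genes' was -0.030. Of the 26 that did not need vehicle libraries to pass the filter, 18 fell and 2 rose, with a median of -0.92. Each of the 21 had also fallen without inhibitor. Ifit1, Oas2, Rsad2, Usp18, Trim30a, Herc6 and Samd9l passed the test only without it, which by itself shows no difference between the arms. Libraries did not overlap for 7 lower and 2 higher genes, against 16.4% of all tested genes in each direction. Without both uneven libraries, 28 of 35 fell and 2 rose (26.7% and 22.5% of all genes in that fit). More falls were bound to appear there, since the libraries left out were low in most of these genes. The count rested on the 3 vehicle libraries: it was 27 without inhibitor vehicle 2, 11 without inhibitor vehicle 1 and 8 without inhibitor vehicle 3. It was 13 without inhibitor acetate 4. Leaving out any other library gave 15 to 23.

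With the mean microglia marker level as a term in the same fit, 3 of the 34 fell with acetate without inhibitor (8.82%, against 9.67% of all tested genes) and 2 with it (5.88%, against 9.21%), shares no higher than those of all genes. These were Eif2ak2 (-0.72), Gbp3 (-1.51) and Irf9 (-0.57) without inhibitor, and Eif2ak2 (-0.87) and Irf9 (-0.42) with it. In that fit Stat2 and Cmpk2 rose with inhibitor (0.46 and 0.63), again a share (5.88%) no higher than that of all genes (7.96%). The marker level itself differed between the vehicle and acetate groups, so acetate and the microglia level cannot be told apart.

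All folds are relative to the scaling. TMM takes most genes as unchanged, and when libraries were instead scaled on the 14 neuronal markers, the median log2 fold of all tested genes was -0.77 without and -0.61 with inhibitor. On that scale 33 and 29 of the 34 fell and 0 rose, where 80.5% and 68.5% of all genes fell and 1.72% and 1.05% rose, with medians of -2.38 and -1.69, each further below 0 than the median of all genes. A rise reported here is a rise on the TMM scale.

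Among the transcription factors, Irf7, the factor that amplifies interferon production, and Irf9, the DNA-binding part of ISGF3, fell, while Stat2, its partner, did not. Irf7 (chromosome 7, 141262706 to 141266481) was at 1.54, 4.86, 4.45 and 4.48 CPM in DMSO vehicle and 1.08, 0.898, 1.31 and 0.973 in DMSO acetate, with replicates in numbered order here and below. With inhibitor it was at 2.35, 0.456 and 2.68 CPM in vehicle and 0.696, 0.689, 0.881 and 0.405 in acetate. DMSO vehicle 1 and inhibitor vehicle 2 were the low vehicle libraries, and inhibitor vehicle 2 lay among the acetate libraries. The log2 fold was -1.84 (SE 0.44) without inhibitor (adjusted p = 0.00287, edgeR) and -1.46 (SE 0.50) with it (adjusted p = 0.0337). Irf9 fell by less and more evenly, with folds of -0.95 (SE 0.13) and -0.66 (SE 0.14) and group means of 17.1 ± 2.51 CPM (SD, n = 4) in DMSO vehicle and 8.88 ± 1.03 CPM (SD, n = 4) in DMSO acetate. Stat2 (chromosome 10, 128270559 to 128292849) was at 37.0, 39.3, 42.1 and 38.6 CPM in DMSO vehicle and 45.3, 40.5, 44.9 and 39.1 in DMSO acetate. In the inhibitor arm it was at 34.02, 42.0 and 41.2 CPM in vehicle and 54.6, 56.2, 57.7 and 51.0 in acetate. All 4 inhibitor acetate libraries were above the other 11, and the rest overlapped. With inhibitor, Stat2 rose with acetate by 0.49 (SE 0.086) (adjusted p = 0.00123, edgeR), which became -0.082 when scaled on neuronal markers. Without inhibitor its fold was 0.11 (SE 0.079) (adjusted p = 0.243).

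The RNA sensors Ifih1 (MDA5) and Ddx58 (RIG-I), which detect viral RNA in the cytoplasm, fell in both arms, and the third of the family, Dhx58 (LGP2), did not pass in either. Ddx58 (chromosome 4, 40203773 to 40239828) was at 4.48, 6.45, 5.19 and 5.51 CPM in DMSO vehicle and 2.11, 2.42, 3.28 and 3.84 in DMSO acetate. Under inhibitor, levels were 4.87, 2.60 and 5.75 CPM in vehicle and 2.61, 2.11, 2.87 and 2.61 in acetate. Groups without inhibitor did not overlap, while inhibitor vehicle 2 sat within the range of inhibitor acetate. Its folds were -0.91 (SE 0.24) (adjusted p = 0.00533, edgeR) and -0.79 (SE 0.26) (adjusted p = 0.0278). Ifih1 passed the filter only through vehicle libraries and so had to be lower with acetate. It had the lowest fold of the 3, -2.11 (SE 0.48) and -2.21 (SE 0.55), from 1.47 ± 0.634 CPM (SD, n = 4) to 0.326 ± 0.183 CPM (SD, n = 4) without inhibitor. Dhx58 had the highest, -0.75 (SE 0.31) (adjusted p = 0.0537) and -0.66 (SE 0.33) (adjusted p = 0.142), and fell in both arms once both uneven libraries were left out (-0.97 and -0.97).

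Isg15, a ubiquitin-like protein that is joined to other proteins, and the enzymes around it had lower levels without inhibitor: 5 of 5 fell, and 2 of 5 with it (27.5% and 20.6% of all tested genes fell). Leaving out Usp18 and Trim30a, which passed the filter only through vehicle libraries, 3 of 3 and 2 of 3 fell. Isg15 (chromosome 4, 156199424 to 156200818) was at 2.29, 4.95, 3.94 and 4.63 CPM in DMSO vehicle and 1.05, 1.17, 1.17 and 1.68 in DMSO acetate. With inhibitor it was at 1.999, 0.729 and 1.82 CPM in vehicle and 0.566, 1.10, 0.556 and 0.360 in acetate. All 4 DMSO vehicle libraries were above the other 11, and with inhibitor the vehicle and acetate groups overlapped through vehicle 2. Folds were -1.65 (SE 0.34) (adjusted p = 0.00121, edgeR) and -1.23 (SE 0.40) (adjusted p = 0.0279). Usp18, the protease that removes Isg15 and also damps the interferon receptor, had the lowest fold of the group without inhibitor. It was at 0.752, 1.37, 2.83 and 1.68 CPM in DMSO vehicle and 0.416, 0.311, 0.328 and 0.378 in DMSO acetate (chromosome 6, 121245906 to 121270917). In the inhibitor arm it was at 1.04, 0.182 and 0.832 CPM in vehicle and 0.609, 0.643, 0.417 and 0.225 in acetate. The DMSO groups were fully apart, and inhibitor vehicle 2 was below all 4 inhibitor acetate libraries. Its folds were -2.18 (SE 0.48) (adjusted p = 0.00177, edgeR) and -0.54 (SE 0.53) (adjusted p = 0.454). Trim25, the ubiquitin ligase that activates RIG-I, was at 3.76, 6.03, 7.14 and 5.05 CPM in DMSO vehicle and 1.53, 1.73, 1.69 and 1.89 in DMSO acetate (chromosome 11, 88999376 to 89020293). Under inhibitor, levels were 5.30, 1.87 and 5.18 CPM in vehicle and 2.35, 1.24, 2.23 and 1.48 in acetate, again with vehicle 2 low. Its folds were -1.69 (SE 0.31) (adjusted p = 0.000506, edgeR) and -1.17 (SE 0.33) (adjusted p = 0.013). Trim30a, an interferon-induced Trim protein, had folds of -2.14 and -1.29, the latter with an adjusted p of 0.123. Herc6, the mouse ligase that attaches Isg15, had the highest fold of the group in both arms, -0.54 (SE 0.19) and -0.21 (SE 0.21).

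**Figure D4:**
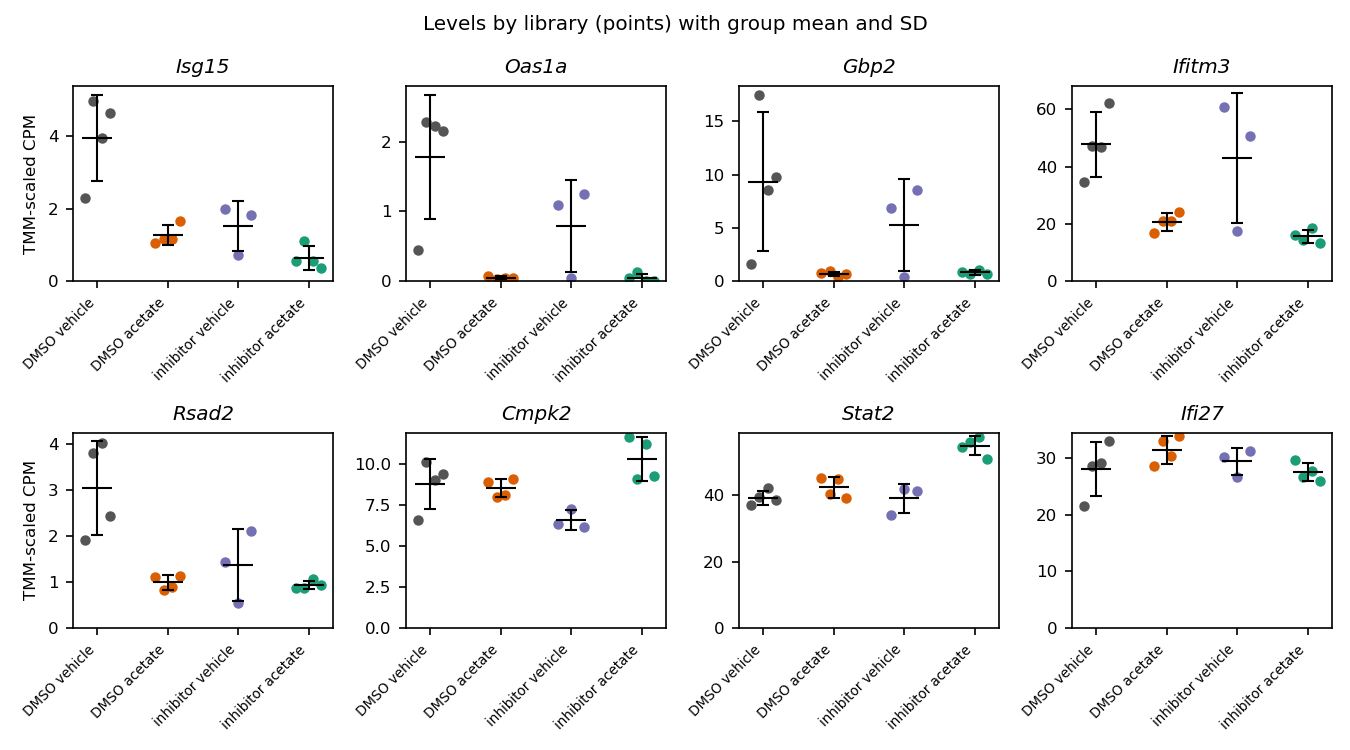
Points are TMM-scaled CPM of 8 genes in each library by group, with the group mean and SD as bars, on linear axes from 0. Isg15, Oas1a, Gbp2, Ifitm3 and Rsad2 are higher in most DMSO vehicle libraries than in DMSO acetate, whereas Cmpk2, Stat2 and Ifi27 overlap between those groups.

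The effectors that bind viral RNA or are activated by it included Oas1a, the gene with the lowest fold in both arms. Without inhibitor 6 of 7 fell, and 4 of 7 with it. Ifit1, Oas1a and Oas2 passed the filter only through vehicle libraries, and of the other 4 genes 3 fell in each arm (27.5% and 20.6% of all tested genes fell). Oas1a, an oligoadenylate synthetase that signals through RNase L, had 186 reads in the DMSO vehicle libraries and 6 in DMSO acetate, a level of 3.23% of vehicle (95% interval 1.17% to 7.16%, counting error only). With inhibitor it had 59 reads in vehicle and 4 in acetate, or 5.47% (1.44% to 14.8%). The fitted log2 folds of -4.85 and -4.01 rest on these few reads, and genes of the Oas, Ifit, Gbp and Ifitm families have close copies whose reads may have been divided. Oas2 had 86 and 7 reads without inhibitor and 23 and 3 with it, and the second of these did not pass the test (adjusted p = 0.0588, edgeR). Oasl2, a related OAS-like protein, fell in both arms (-2.999 (SE 0.50) and -2.08 (SE 0.54)).

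Ifit1, which binds viral RNA whose cap lacks the host's methyl mark, was at 1.35, 2.97, 2.73 and 2.26 CPM in DMSO vehicle and 0.333, 0.380, 0.281 and 0.378 in DMSO acetate (chromosome 19, 34640871 to 34650009). With inhibitor it was at 1.22, 0.137 and 1.59 CPM in vehicle and 0.653, 0.0459, 0.232 and 0.450 in acetate. Every DMSO vehicle library was above every DMSO acetate library, and inhibitor vehicle 2 lay within the acetate range. Folds were -2.74 (SE 0.57) (adjusted p = 0.00123, edgeR) and -1.50 (SE 0.63) (adjusted p = 0.0791), and the second passed without both uneven libraries (-1.99, adjusted p = 0.000545). Its neighbour Ifit3 fell in both arms (-2.38 (SE 0.45) and -1.98 (SE 0.45)), while Ifit2, 7111 bases from Ifit3 on the same strand, had the highest folds of the group, -0.53 (SE 0.23) (adjusted p = 0.07) and 0.087 (SE 0.26) (adjusted p = 0.815). The kinase Eif2ak2 (PKR), which stops translation on sensing double-stranded RNA, was at 19.5, 27.6, 21.9 and 23.1 CPM in DMSO vehicle and 11.2, 13.6, 11.5 and 15.9 in DMSO acetate (chromosome 17, 78852564 to 78882573). In the inhibitor arm it was at 21.6, 19.1 and 20.2 CPM in vehicle and 13.0, 9.27, 10.9 and 9.18 in acetate. The vehicle and acetate libraries did not overlap in either arm, and here inhibitor vehicle 2 stood with the other vehicle libraries. Folds were -0.82 (SE 0.14) (adjusted p = 0.000324, edgeR) and -0.94 (SE 0.15) (adjusted p = 0.000757). Eif2ak2 and Irf9 passed in both arms under all 25 settings tried, the microglia term included.

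Among the interferon-induced GTPases, Gbp2 and Gbp3, guanylate-binding proteins that attack the membranes of intracellular pathogens, fell in both arms, and the dynamin-like Mx2 passed in neither. Gbp2 (chromosome 3, 142620602 to 142638008) was at 1.62, 17.4, 8.57 and 9.76 CPM in DMSO vehicle and 0.804, 0.933, 0.421 and 0.649 in DMSO acetate. Under inhibitor, levels were 6.91, 0.410 and 8.51 CPM in vehicle and 0.914, 0.689, 1.11 and 0.675 in acetate. DMSO vehicle 1 was closer to the acetate libraries than to the other vehicle libraries, and inhibitor vehicle 2 was below all of inhibitor acetate. Folds were -3.70 (SE 0.74) (adjusted p = 0.000958, edgeR), the lowest of this group, and -2.64 (SE 0.76) (adjusted p = 0.0159). Gbp3 (chromosome 3, 142560026 to 142573209), 47392 bases from Gbp2, was at 3.99, 5.38, 3.38 and 2.83 CPM in DMSO vehicle and 1.36, 1.21, 1.40 and 1.57 in DMSO acetate. With inhibitor it was at 1.69, 1.78 and 2.27 CPM in vehicle and 1.48, 0.918, 1.21 and 0.945 in acetate. Gbp3 had a different shape: DMSO vehicle 1 was among the high libraries, and the groups did not overlap in either arm. Its folds were -1.50 (SE 0.22) (adjusted p = 0.000121, edgeR) and -0.75 (SE 0.25) (adjusted p = 0.0283). Mx2 had the highest fold of the group in both arms, -0.27 (SE 0.44) (adjusted p = 0.626) and 0.72 (SE 0.58) (adjusted p = 0.358). Mx1, not tested, had 45 reads in DMSO vehicle and 11 in DMSO acetate, or 24.5% of vehicle (95% interval 11.4% to 48.1%), against 3 and 10 reads with inhibitor.

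Of 5 factors that restrict viruses at membranes or through nucleotides, 4 fell without inhibitor (27.5% of all tested genes fell), and 2 fell and 1 rose with it (20.6% and 14.5%). One of the 4, Samd9l, passed the filter only through vehicle libraries. Ifitm3 (chromosome 7, 141009586 to 141010770) was at 34.8, 47.4, 46.8 and 62.3 CPM in DMSO vehicle and 16.7, 21.2, 21.2 and 24.2 in DMSO acetate. In the inhibitor arm it was at 60.7, 17.6 and 50.6 CPM in vehicle and 16.3, 14.5, 18.6 and 13.5 in acetate, where vehicle 2 lay within the acetate range. Folds were -1.20 (SE 0.28) (adjusted p = 0.00259, edgeR) and -1.45 (SE 0.30) (adjusted p = 0.00298). Bst2 had the lowest fold of the group with inhibitor (-2.25 (SE 0.50), against -2.17 (SE 0.46) without), and Samd9l, an interferon-induced restriction factor, the lowest without (-2.18 (SE 0.41), against -1.12 (SE 0.47) with).

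The neighbours Rsad2 and Cmpk2 had different folds. Rsad2 (viperin) makes a chain-terminating nucleotide from CTP, and Cmpk2 is a mitochondrial nucleotide kinase. They lie 12751 bases apart on opposite strands of chromosome 12, reading away from each other. Rsad2 was at 1.92, 3.81, 4.03 and 2.45 CPM in DMSO vehicle and 1.11, 0.8294, 0.890 and 1.14 in DMSO acetate, with no overlap. Its inhibitor groups were at 1.43, 0.547 and 2.12 CPM in vehicle and 0.871, 0.872, 1.07 and 0.945 in acetate, and overlapped through vehicle 2. Its folds were -1.62 (SE 0.33) (adjusted p = 0.00109, edgeR) and -0.55 (SE 0.37) with inhibitor (adjusted p = 0.262). Cmpk2 was at 6.58, 10.1, 8.99 and 9.38 CPM in DMSO vehicle and 8.88, 7.98, 8.10 and 9.08 in DMSO acetate, which overlapped. Under inhibitor, levels were 6.30, 7.25 and 6.16 CPM in vehicle and 11.6, 9.09, 11.2 and 9.22 in acetate, and every acetate library was above every vehicle library. Cmpk2 had folds of -0.043 (SE 0.13) (adjusted p = 0.805, edgeR) and 0.65 (SE 0.15) (adjusted p = 0.00482), the highest of the group in both arms. Scaled on neuronal markers, its fold with inhibitor was 0.084. The stretch printed for Rsad2 holds 1 motif match and that for Cmpk2 holds 0.

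Parp9, Parp14 and Dtx3l, which attach ADP-ribose or ubiquitin to proteins in the interferon response, fell in both arms. These were 3 of 3, where 27.5% and 20.6% of all tested genes fell, although Parp14 passed the filter only through vehicle libraries. Parp9 (chromosome 16, 35938470 to 35972605) was at 3.24, 5.80, 4.03 and 4.63 CPM in DMSO vehicle and 1.53, 1.04, 1.87 and 2.11 in DMSO acetate. With inhibitor it was at 3.52, 1.73 and 3.55 CPM in vehicle and 1.44, 1.47, 1.76 and 1.12 in acetate. The DMSO groups were apart, and inhibitor vehicle 2 was just below the highest inhibitor acetate library. Folds were -1.45 (SE 0.27) (adjusted p = 0.000613, edgeR) and -1.02 (SE 0.29) (adjusted p = 0.0158). Parp14 had the lowest folds (-3.31 (SE 0.65) and -2.81 (SE 0.71)). Dtx3l had -1.42 (SE 0.25) and -1.03 (SE 0.27). It overlaps Parp9 by 682 bases on the other strand, and since the strand setting of the counting is not given in the sources used here, reads of the pair may be shared.

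Of the remaining genes, Xaf1, Rtp4, Ifi35 and Lgals3bp fell in both arms, and Ifi27 in neither. Ifi27 (chromosome 12, 103434211 to 103440239) was at 21.5, 28.7, 29.2 and 33.0 CPM in DMSO vehicle and 28.5, 33.1, 30.4 and 33.8 in DMSO acetate. In the inhibitor arm it was at 30.3, 26.7 and 31.2 CPM in vehicle and 29.6, 26.6, 27.8 and 26.0 in acetate. The groups overlapped in every comparison, and DMSO vehicle 1 was the lowest library. Folds were 0.16 (SE 0.11) (95% interval -0.071 to 0.40, adjusted p = 0.226, edgeR) and -0.10 (SE 0.12) (-0.35 to 0.16, adjusted p = 0.551). Xaf1, a partner of the apoptosis inhibitor XIAP, had the lowest folds of these genes (-1.88 (SE 0.51) and -1.73 (SE 0.57)). Ifi35, Rtp4, a chaperone of receptors, and Lgals3bp, a secreted partner of galectins, ran from -1.59 (Rtp4) to -1.14 (Lgals3bp) without inhibitor, and from -1.18 (Ifi35) to -0.82 (Lgals3bp) with it. Ifi44, not tested, had 25 reads in DMSO vehicle and 3 in DMSO acetate, or 12.01% of vehicle (95% interval 2.32% to 39.4%), and 9 reads and 1 read with inhibitor.

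Whether the inhibitor changed the response to acetate was asked of the difference between the arms. The median difference over the 34 genes was 0.43, and that over all tested genes was 0.0019. It was 0.17 without inhibitor vehicle 2, and 0.64 to 0.66 without DMSO vehicle 1, inhibitor vehicle 1 or inhibitor vehicle 3. By edgeR's quasi-likelihood test, 0 of 34 passed in either direction (0.0133% of all tested genes were higher and 0.00663% lower). At an unadjusted p under 0.05, a count not taken over all genes, were 5 of the 34. These were Cmpk2 at 0.69 (SE 0.20) (95% interval 0.27 to 1.11, adjusted p = 0.0814), Stat2 at 0.38 (SE 0.12) (0.13 to 0.62, adjusted p = 0.0958), Gbp3 at 0.75 (SE 0.33) (0.043 to 1.45), Rsad2 at 1.07 (SE 0.50) (0.0071 to 2.12) and Usp18 at 1.64 (SE 0.72) (0.10 to 3.17). DESeq2 called Cmpk2 (0.69, adjusted p = 0.0244) and Stat2 (0.38, adjusted p = 0.0334). Of all genes, DESeq2 called 1.76% higher and 4.99% lower. Without both uneven libraries edgeR called the same pair, Cmpk2 at 0.88 (adjusted p = 0.0136) and Stat2 at 0.46 (adjusted p = 0.0461). In that fit 1.56% of all genes were higher and 2.74% lower. Intervals were wide elsewhere: that of Isg15 ran from -0.72 to 1.56, that of Ifit1 from -0.61 to 3.10 and that of Irf7 from -1.04 to 1.81, so a difference in either direction was not detectable for these genes at this spread. Eif2ak2 had the narrower -0.56 to 0.32 around -0.12.

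In vehicle cultures, the inhibitor went with lower Isg15 and Gbp3. These were 2 of 34 genes that fell, with 0 that rose, against 1.99% of all tested genes that fell and 3.47% that rose. Isg15 differed by -1.38 (SE 0.37) (adjusted p = 0.0457, edgeR) and Gbp3 by -1.02 (SE 0.24) (adjusted p = 0.0264), and in both the 3 inhibitor vehicle libraries were below all 4 of DMSO vehicle. Such separation downward was seen in 3 of the 34 genes, Mx2 being the other, and in 7.36% of all tested genes, and upward in 0 of the 34 and 9.34% of all. The median log2 fold was -0.55 (-0.0034 over all genes), and it was -0.28 without inhibitor vehicle 2. Of the 34 folds, 32 were below 0 (50.4% of all genes'). At an unadjusted p under 0.05 were 11 genes, all lower, a count not taken over all genes. DESeq2 called 3 lower and 0 higher (4.64% and 6.44% of all genes). Without both uneven libraries 8 of 35 fell (2.6% of all genes in that fit): Isg15 (-1.25), Gbp3 (-0.97), Irf7 (-0.87), Oasl2 (-0.89), Rsad2 (-0.94), Samd9l (-1.10), Cmpk2 (-0.61) and Mx1. Mx1 then passed the filter only through DMSO vehicle libraries and so had to be lower with inhibitor. Leaving out single libraries gave 0 to 5, with 5 without DMSO vehicle 1 and 0 without DMSO vehicle 2, inhibitor vehicle 1 or inhibitor vehicle 2. The microglia markers had a median log2 fold of -0.64 in this comparison, with 0 of 16 past the test, and their part in the result was not tested apart from the fit with the marker term. In that fit 3 of the 34 fell (8.82%) and 1 rose (2.94%). Of all genes 7.7% fell and 7.75% rose there, so the share that fell was near that of all genes.

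In acetate cultures, the inhibitor went with higher Stat2, at 0.37 (SE 0.079) (adjusted p = 0.0168, edgeR). It was 1 of 34 genes that rose (2.36% of all tested genes rose), and 0 fell (3.42% fell). At an unadjusted p under 0.05 were 2 genes, Isg15 and Stat2, a count not taken over all genes. DESeq2 also gave 1 higher and 0 lower (3.92% and 5.84% of all genes). The call on Stat2 was lost, with 0 genes higher, when scaled on neuronal markers and without DMSO acetate 2, DMSO acetate 4 or inhibitor acetate 3. Isg15 differed by -0.96 (SE 0.38) (adjusted p = 0.153). The median was -0.12, and libraries did not overlap for 3 higher and 3 lower genes (8.96% and 12.4% of all tested genes). These 2 comparisons share their groups with the acetate comparisons and are no further evidence for them. Without both uneven vehicle libraries, which leaves these 2 groups as they were but lowers the pooled spread, 2 of 35 rose (Stat2 and Ifit3) and 3 fell (Isg15, Bst2 and Ifitm3). These shares, 5.71% and 8.57%, were no higher than those of all genes in that fit, 6.89% and 10.7%.

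The rest of the pathway was read from lists of its parts. The interferons themselves were nearly absent: of 21 type I, II and III interferon genes, 15 had 0 reads in all 15 libraries, and the other 6 had 27 reads together, with at most 3 in a library. Ifng had 10 of these reads. Such counts allow no comparison.

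In all tested genes, 23.7% rose and 27.5% fell without inhibitor, and 14.5% rose and 20.6% fell with it, which the counts of each list below can be set against. Of the receptors and their kinases, without inhibitor, 1 of 8 tested rose and 3 fell (median -0.19), and with it 2 rose and 3 fell (median -0.13). Ifnar1, a chain of the type I receptor, fell slightly in both arms (-0.21 (SE 0.058) and -0.24 (SE 0.062)), and Ifngr2, a chain of the type II receptor, rose slightly in both (0.29 (SE 0.084) and 0.28 (SE 0.091), but -0.43 and -0.28 when scaled on neuronal markers). The kinases differed by 0.15 (SE 0.089) (Jak1) and -0.14 (SE 0.11) (Tyk2) without inhibitor, neither past the test, and Jak1 rose with it (0.29 (SE 0.10), but -0.27 when scaled on neuronal markers).

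Among 15 tested sensors, adaptors and kinases upstream of interferon, 8 fell without and 9 with inhibitor, and by edgeR 0 rose in either, also at an unadjusted p under 0.05 (of all genes 27.5% and 20.6% fell, and 23.7% and 14.5% rose). Tlr4, Tlr7, Tlr8 and Zbp1 passed the filter only through vehicle libraries and so had to be lower with acetate. The rest were not counted apart, so these counts cannot be weighed against the shares of all genes. Of the list's 4 genes with most reads, Unc93b1, the escort of endosomal Toll-like receptors, had -3.67 (SE 0.72) and -3.19 (SE 0.74). Traf3 and Tbk1, the adaptor and kinase that activate Irf3, did not pass in either arm (-0.063 and -0.18 without inhibitor). Ticam1, the adaptor of Tlr3, had 0.10 without inhibitor and fell with it (-0.39 (SE 0.10)).

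Of the other IRF and STAT factors, the 4 with most reads are given. Irf1, a factor strongly induced by interferon gamma, fell in both arms (-1.39 (SE 0.20) and -0.91 (SE 0.21)), as did Stat3 (-0.67 (SE 0.12) and -0.39 (SE 0.13)). Irf3, the factor that starts interferon transcription, was at 0.054 and -0.20, and Stat5b at -0.25 and 0.068, none past the test.

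Among feedback inhibitors, 3 of 12 rose and 5 fell without inhibitor (23.7% and 27.5% of all genes), and 2 rose and 4 fell with it (14.5% and 20.6%), counts near those shares. Socs2, an inhibitor of cytokine signalling, rose in both arms (0.95 (SE 0.16) and 0.56 (SE 0.17), of which the second was 0.0082 when scaled on neuronal markers). The SUMO ligase Pias4 rose in both as well (0.35 (SE 0.06) and 0.19 (SE 0.065)), though it was at -0.38 and -0.39 when scaled on neuronal markers. The phosphatase Ptpn11 fell without inhibitor (-0.49 (SE 0.12)) and was at 0.32 (SE 0.13) with it, while Ptpn1 passed in neither (0.18 and 0.17).

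A longer list of 62 further interferon-induced genes, of which 51 were tested, is given beside the 36: 40 fell and 0 rose without inhibitor (median -1.56), and 27 fell and 1 rose with it (median -0.92), where 27.5% and 20.6% of all genes fell. Genes of this list that passed the filter only through vehicle libraries, and so had to be lower with acetate, were not set apart. Ccl5 was such a gene, with 16, 133, 57 and 112 reads in DMSO vehicle and 0, 1, 0 and 0 in DMSO acetate. The counts of this list are therefore no separate support for those of the 36. The list's 4 most-read genes were less uniform. B2m, the light chain of MHC class I, fell in both arms (-1.56 (SE 0.35) and -1.34 (SE 0.37)). The RNA editor Adar fell without inhibitor (-0.40 (SE 0.089)) and was at 0.029 (SE 0.10) with it, and the RNA-binding Znfx1 likewise fell without (-0.51 (SE 0.12)). Ifitm2, a relative of Ifitm3, was at -0.36 (SE 0.21) without inhibitor and fell with it (-0.68 (SE 0.23)).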

How the data were processed

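RNA had been sequenced in 15 libraries of primary mouse hippocampal neuron cultures. Per the labels' protocols, total RNA came from QIAzol and RNeasy columns, and the NEBNext Ultra II Directional kit made the libraries. The authors deposited whole-number read counts per gene symbol, not normalized. The tools named, per the submitters' processing notes, were STAR 2.5.2a, HTSeq 0.6.1p1 and DESeq2, with build mm10. Overlapping, antisense and near-identical genes are uncertain, because details of the counting (annotation, mode, strand) were not given in the sources used here. Lines that name no gene (38.9% to 47.4% of a library) were left out. Gene counts of 19688231 to 39234799 per library remained, and intervals from read numbers cover counting error only.

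Groups came from the labels. The counts were fitted with edgeR 4.0.16 (quasi-likelihood test, TMM scaling, filterByExpr, which here asked for 0.44 CPM in at least 3 libraries) in R 4.3.3. All 15 libraries entered with 1 mean per group, and p-values were adjusted by Benjamini-Hochberg over 15075 genes with a threshold of 0.05. A list was described by its counts and median. The SE was taken as the size of the log2 fold over the root of its F statistic, and log2 CPM has a prior count of 2. Alternatives were 3 other scalings, DESeq2 1.42.0, 2 other filters, a replicate block, a microglia term, both uneven vehicle libraries left out, only the groups compared, and each library left out. The fit was tested on simulated data. No libraries of 1 group agreed within counting noise (chi-square per gene 4.65 to 144).

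All 36 genes are named. Values in every library are given for the gene with most reads in each of 8 role classes, for Isg15, Ifit1, Irf7 and Usp18, and for genes past the threshold in an inhibitor comparison. Rsad2 and Cmpk2 were added to these after their values were seen. Up to 4 genes with most reads are named per pathway list. The genes and lists were chosen with earlier results of these data known. Promoters came from RefSeq, and gene positions and exon lengths from GENCODE M21.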

Additional observations from a re-analysis of the deposited data

Results flagged for a closer look

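In DMSO vehicle 1, Irf7 was at 1.54 CPM, far below the other 3 libraries of its group, which were at 4.45 to 4.86 CPM. In the same library the mean of the microglia and macrophage markers was 2.46 log2 CPM, against 4.86 to 4.94 in the other 3. Each was the lowest of 4 libraries by a gap that was large for the group's whole range. In all, 45 groups of 4 libraries were looked at and 2 had such a gap, and chance gives about 1 in 20, or 2.25. Whether the low Irf7 level and the low microglia level share a source was not tested.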

How the results depend on the processing

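The count of genes that fell with acetate without inhibitor stayed within 1.5 times of 28 under each alternative except the microglia term, which left 3. Leaving out 1 library gave 27 to 30 lower (and 0 higher throughout), 8 to 27 lower and 2 higher with inhibitor, 0 to 1 higher for the difference of responses, 0 to 5 lower for the inhibitor in vehicle, and 0 to 1 higher for the inhibitor in acetate. With inhibitor, acetate lowered 2 with the microglia term (9.21% of all genes fell) and raised 0 when scaled on neuronal markers (1.05% rose). When only the groups compared were fitted, 28 were tested and acetate lowered 12 of them, with 15.3% of all genes. The difference of responses had 2 higher by DESeq2 and 2 without both uneven libraries (1.76% and 1.56% of all genes). In vehicle the inhibitor lowered 0 (neuronal scaling, 0.119% of all genes) and 1 of 36 (no filter, 1.06%). It lowered 8 of 35 with both uneven libraries out, Mx1 included (2.6%), and 0 with only the groups compared (0% of all genes). With the microglia term it lowered 3 and raised 1 (7.7% and 7.75% of all genes). In acetate the inhibitor raised 0 (neuronal scaling, 0.299% of all genes), 2 of 35 (both out, 6.89%) and 2 of 25 (only the groups, 8.58%). It lowered 1 (microglia term, 7.77%), 3 of 35 (both out, 10.7%) and 3 of 25 (only the groups, 10.6%). These shares of the interferon-stimulated genes were near or below those of all genes. With the replicate number as a block, acetate lowered 28 without inhibitor and 15 with it (25.8% and 17.4% of all genes). The inhibitor in vehicle lowered 1 in that fit (1.35% of all genes). No pairing by replicate number was seen: 21 pairs with the same number correlated at -0.65 to 0.38 (6 of them over 0.1), and not every library correlated best with its own number. The highest correlation, 0.74, was between the uneven DMSO vehicle 1 and inhibitor vehicle 2. Pairing could be hidden under such variation, so it is not excluded.

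These log2 folds changed sign, and the cause was not tested. Scaled on neuronal markers, Stat2 was -0.63 and Ifi27 -0.60 without inhibitor, and Ifit2 -0.51 and Stat2 -0.082 with it. With the microglia term and no inhibitor, Irf7 was 0.14, Oas2 1.33, Dhx58 0.34, Bst2 0.080, Ifi35 0.63, Xaf1 0.54, Trim30a 0.53, Lgals3bp 0.026 and Gbp2 0.079. With that term and inhibitor, Irf7 was 0.044, Oas2 0.94, Rsad2 0.35, Usp18 0.87, Dhx58 0.11, Ifi35 0.28, Ifi27 0.053, Xaf1 0.17, Trim30a 0.82, Lgals3bp 0.015 and Gbp2 0.41. With inhibitor, Ifit2 was -0.047 without both uneven libraries, and -0.045 (without inhibitor vehicle 2) to 0.27 when 1 library was left out. Without inhibitor, leaving out 1 library gave -0.17 to 0.020 for Cmpk2 (the latter without DMSO vehicle 2) and -0.49 to 0.022 for Mx2 (the latter without DMSO acetate 2). The depth allows no fold for genes at or under 3 reads in both groups, and the 3 libraries of inhibitor vehicle, 1 of them far from the others, limit each comparison that uses them.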

Other observations

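Ifi27l2a, a gene of the same family as Ifi27, was looked up after its values had been seen, because RefSeq lists Ifi27 among its synonyms. It was at 0.451, 1.73, 1.53 and 1.65 CPM in DMSO vehicle 1 to 4 and at 0.139, 0.138, 0.187 and 0.216 in DMSO acetate. With inhibitor, Ifi27l2a was at 1.39, 0.0911 and 1.17 CPM in vehicle and at 0.218, 0.138, 0.278 and 0.135 in acetate. Every DMSO vehicle library was above every DMSO acetate library, and inhibitor vehicle 2 was below all 4 inhibitor acetate libraries. The log2 folds of Ifi27l2a were -2.99 (SE 0.61) without inhibitor (adjusted p = 0.00115, edgeR) and -2.19 (SE 0.66) with it (adjusted p = 0.0198), where those of Ifi27 did not pass the test.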
